A study of Mus musculus with 12 samples.

Results

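The genes described here are 10 endothelial identity genes, taken by gene name: Pecam1, Cdh5, Kdr, Flt1, Tek, Tie1, Vwf, Emcn, Nos3 and Plvap. Their members were found as the probes that carry one of these gene names in the scanner's output. All 10 genes had a probe, with 16 probes and 35 spots per array in all. The array holds 55681 probes and 34844 gene entries, which include probes without a gene name counted under their own ID. The filter on dim probes kept a probe if some group had it well above background on 3 or more of its 4 arrays, and all 16 probes passed.

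The arrays measured RNA from the left ventricular wall and apex, without the septum, of 12 mice aged 6 months, 4 per group. Nkx2-5ΔTrbE10 mice (here TrbE10) carried floxed Nkx2-5-ΔNeo and Cx40-creERT2, and their mothers were given tamoxifen at E10.5 and E11.5. Nkx2-5ΔTrbE14 mice (TrbE14) had the same alleles, and tamoxifen came at E13.5 and E14.5. The labels call the controls non-injected, whereas the study's methods describe them as littermates with both floxed Nkx2-5-ΔNeo alleles and no Cre (Cx40+/+), so they share the floxed alleles with the mutants, and whether their mothers received tamoxifen is not settled. Pups of injected mothers were delivered by caesarean section and raised by CD1 females. The Cre is driven from the Cx40 (Gja5) locus, which is active in the embryonic trabecular myocardium and is also known in arterial endothelium. The labels do not say which litters the samples came from, so p-values measure only the spread between these samples.

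Endothelial cells line the inside of every blood vessel, and in the heart the endocardium, a related lining, faces the cavities. They are held together by VE-cadherin (Cdh5) and PECAM-1, they respond to vascular endothelial growth factors through Kdr and Flt1 and to angiopoietins through Tek, and they store von Willebrand factor (Vwf) for release at sites of injury. Capillaries, arteries, veins and endocardium use these genes to different degrees, Vwf being richer in larger vessels and endocardium than in most capillaries, whereas Plvap marks fenestrated and venous endothelium. In bulk tissue such as this, fewer cells of a type and less RNA per cell cannot be told apart.

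Some facts of the arrays bear on all values below. Control and TrbE14 samples lay on 1 slide and TrbE10 samples on the other, so slide and group cannot be told apart for TrbE10, and within the first slide the controls filled 1 row and the TrbE14 samples another. Nkx2-5, the deleted gene, had log2 signals of 11.89 to 12.23 in the controls, 11.21 to 11.67 in TrbE10 arrays and 11.12 to 11.63 in TrbE14 arrays, so that all mutant arrays lay below all controls. All 9 cardiomyocyte markers were measured in this ventricular tissue, and limma called none in either mutant, while 2 in TrbE10 and 1 in TrbE14 had an unadjusted p under 0.05, all of them lower. Over all gene entries, 16.8% in TrbE10 and 13.9% in TrbE14 had such a p in either direction, 7.8% and 6.52% being higher. By the Xist signal, 1 control, 2 TrbE10 and 3 TrbE14 arrays were read as male.

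Only the Vwf signal changed past the test in the mutant ventricles. Of the 10 genes, 1 was called higher and none lower in TrbE10 against control, where 1.93% of all 18021 gene entries were called in either direction, and again 1 was called higher and none lower in TrbE14, where 0.66% of entries were called. A gene entry is called when its brightest filtered probe has a Benjamini-Hochberg adjusted p under 0.05 in limma. The fitted change was above 0 for 9 of 10 members in TrbE10 and for 8 of 10 in TrbE14, against 45.2% and 44.1% of all entries, and for 4 of 10 in TrbE10 against TrbE14, where 51.2% of entries were above 0. The median log2 change of the 10 members was 0.16 in TrbE10 and 0.17 in TrbE14, beside -0.02 and -0.03 over all entries. With sex as a covariate the TrbE14 median was 0.29.

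**Figure D1:**
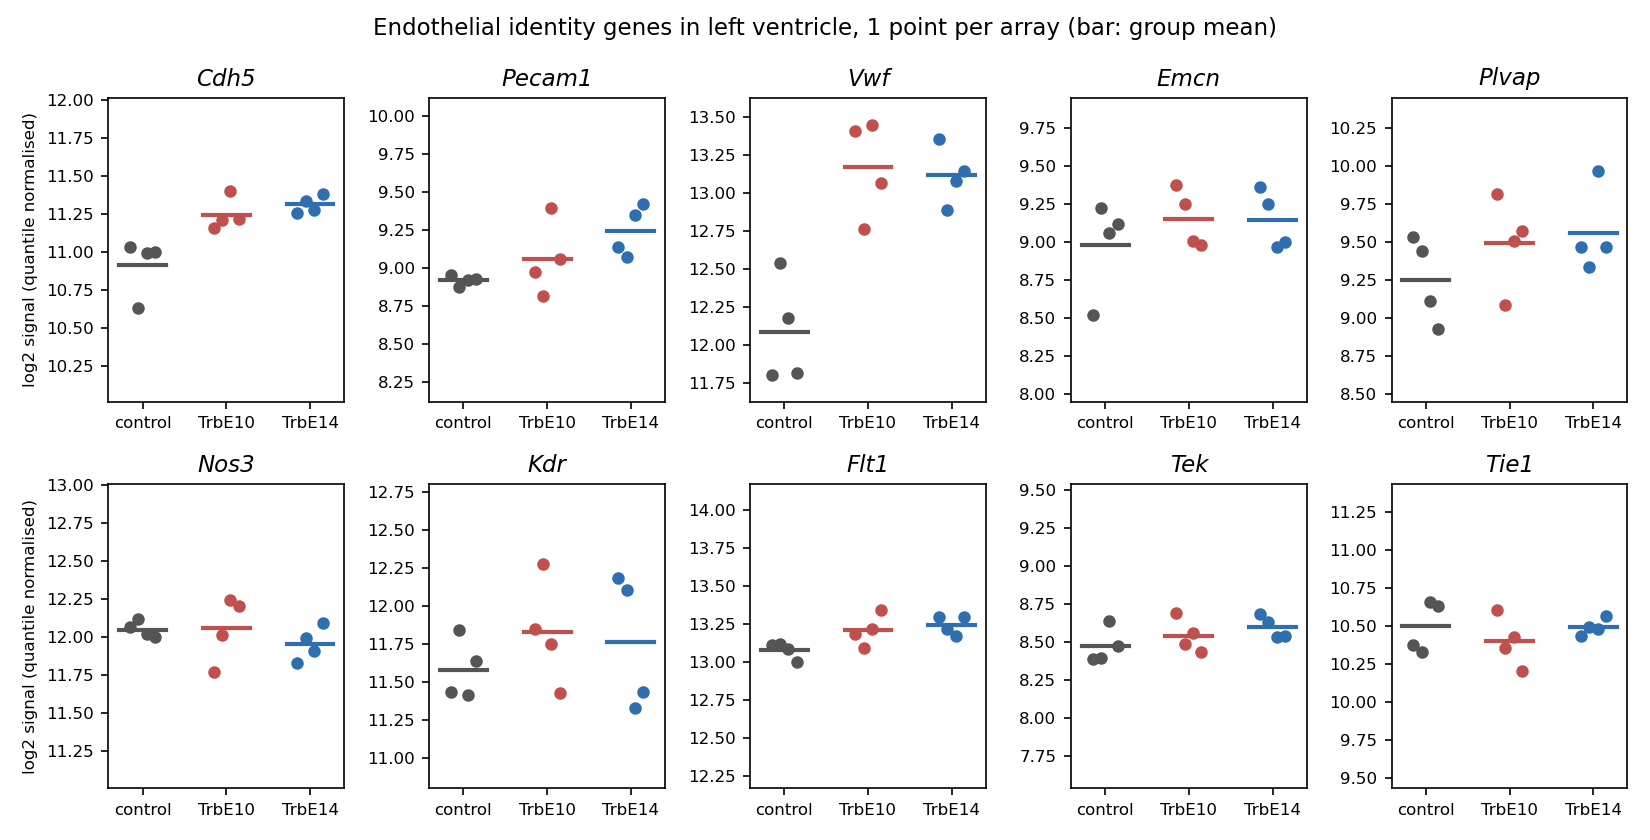
Log2 signal of the brightest probe of each of the 10 genes on each array (vertical axis, quantile normalised, the same span of log2 units in every panel but not starting at 0), by group, with 1 point per array and a bar at the group mean. The 8 mutant points of Vwf lie above all 4 control points, from 12.76 upward against at most 12.53, those of Cdh5 do so by a smaller gap, and those of Nos3, Tie1 and Tek overlap the controls.

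The probes that carry these results are 60-mers whose sequences come with the scanner's output, given 5′ to 3′ as they stand there. The first 30 of 60 bases are given, in lower case, for the 2 Vwf probes, since the call rests on 1 of them, and for the 3 Flt1 probes, which are assigned to different transcripts.
Vwf A_51_P103397: caagtgaggcctgtgcagctacagcggatt
Vwf A_55_P2169659: tagttaaacagaacaacagtgaagggcgga
Flt1 A_51_P398723: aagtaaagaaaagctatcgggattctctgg
Flt1 A_55_P2166282: ggagggtactgccgttcctgtgtggtattt
Flt1 A_52_P405145: tccctatcccaactacacattcaatcttct
The Vwf probe A_51_P103397 (NM_011708) lies on chromosome 6 of mm9 from 125636551 to 125636610, on the + strand. A_55_P2169659, assigned to ENSMUST00000112253, lies on the same chromosome and strand from 125542106 to 125542165. The Flt1 probes lie on the - strand of chromosome 5, A_51_P398723 (NM_010228) from 148373791 to 148373850, A_55_P2166282 (ENSMUST00000110529) from 148446872 to 148446931 and A_52_P405145 (AK005502) from 148465976 to 148466035. No annotation of mm9 was used here, so exons and untranslated regions are not assigned.

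Vwf encodes the large adhesive glycoprotein that tethers platelets and carries factor VIII. With the brighter probe its log2 signal was 11.80, 12.53, 12.17 and 11.82 in the controls. It was 13.41, 12.76, 13.45 and 13.06 in the TrbE10 arrays and 13.36, 12.88, 13.08 and 13.14 in the TrbE14 arrays. Every mutant array thus lay above every control, the lowest TrbE10 array by 0.22 and the lowest TrbE14 array by 0.35 above the highest control. The signal was 2.13-fold that of control in TrbE10 (log2 change 1.09 ± 0.20, SE, 95% interval of the fold 1.58 to 2.87, limma adjusted p = 0.0215, n = 4 and 4). In TrbE14 it was 2.05-fold (1.03 ± 0.20, interval 1.52 to 2.76, adjusted p = 0.0451). The 2 mutants differed by 0.05 on the log2 scale, with an interval from -0.38 to 0.49. An exact two-sided permutation test gave p = 0.0286 for each mutant, the smallest that 70 label orders allow.

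The second Vwf probe was dim: it was well above background on 2 control, 1 TrbE10 and 4 TrbE14 arrays. It thus passed the filter only through TrbE14. Its log2 signal ran from 3.13 to 5.50 in the controls, a range that takes in all 8 mutant arrays, and its changes of 0.14 and 0.45 (SE 0.44) did not pass the test (adjusted p = 0.907 and 0.659). Averaging both probes gave Vwf changes of 0.61 and 0.74 with no call. The call of the brighter probe stood near the threshold: it was lost without control 1, control 3, control 4, TrbE10 1 or TrbE10 3 in TrbE10 (log2 change 0.99 to 1.12, adjusted p = 0.0534 to 0.0738), and in TrbE14 without any 1 of 7 control and TrbE14 arrays, all but control 2 (0.94 to 1.11, adjusted p = 0.0644 to 0.132).

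Vwf is also made by megakaryocytes and carried by platelets, and it is rich in endocardium. Of 6 platelet and megakaryocyte genes 5 were measured, and 1 of them, Pf4, was called higher, in TrbE10 (log2 change 0.53, adjusted p = 0.0234). The 5 genes did not move together: 2 had a change above 0 in each mutant, and the medians were -0.08 and -0.11. In both mutants these 2 had an unadjusted limma p under 0.05, which 7.8% and 6.52% of all entries had while higher. The largest change, 1.01 in TrbE10 and 0.97 in TrbE14, was not that of Pf4, and the lowest was -0.66 and -0.38. The mean level of these 5 genes, each centred over the 12 arrays, lay between -0.49 and 0.45 in controls, between -0.16 and 0.48 in TrbE10 arrays and between -0.47 and 1.14 in TrbE14 arrays, so the groups overlapped. Itga2b, the defining integrin of the lineage, did not pass the filter. The mean level of the 3 measured endocardial genes lay between -1.001 and -0.48 in controls, and both mutants lay above that (0.18 to 0.80 in TrbE10, 0.10 to 0.40 in TrbE14). Of these 3, Cytl1 and Npr3 had changes above 0 in both mutants and Nfatc1, at -0.01 and -0.20, did not. The part of these cells in the Vwf signal was not tested.

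VE-cadherin (Cdh5) forms the adherens junctions between endothelial cells, and its signal was higher in all 8 mutant arrays than in all controls without passing the test over all probes. The probe, A_52_P248604 (NM_009868), lies on chromosome 8 of mm9 from 106668159 to 106668218 on the + strand. Its log2 signal was 11.03, 10.63, 10.99 and 11.00 in control, 11.15, 11.21, 11.40 and 11.22 in TrbE10, and 11.25, 11.34, 11.28 and 11.38 in TrbE14 arrays. The gap to the highest control was 0.12 for TrbE10 and 0.22 for TrbE14. The change was 0.33 ± 0.10 in TrbE10 (1.26-fold, interval 1.08 to 1.47, adjusted p = 0.133) and 0.40 ± 0.10 in TrbE14 (1.32-fold, interval 1.13 to 1.54, adjusted p = 0.124). With normexp background correction the TrbE14 change of Cdh5 was 0.43 and passed, with an adjusted p of 0.0443. Control 2 lay apart from the other controls, and without it the changes were 0.24 and 0.30.

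PECAM-1 (Pecam1), an adhesion molecule of endothelial junctions that platelets and some leukocytes also carry, was measured by a probe with 2 spots per array (A_55_P2087087, NM_001032378, chromosome 11 of mm9 from 106540864 to 106540923, - strand). The controls lay within 0.08 of each other on the log2 scale, at 8.95, 8.87, 8.92 and 8.92. TrbE10 arrays gave 8.97, 8.82, 9.39 and 9.06, which overlapped the controls, and TrbE14 arrays gave 9.14, 9.07, 9.35 and 9.42, which did not. The change was 0.33 ± 0.12 in TrbE14 (adjusted p = 0.288) and 0.14 ± 0.12 in TrbE10 (adjusted p = 0.611). The difference between the mutants, -0.18 with an interval from -0.45 to 0.09, did not pass the test either.

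In counts without overlap, 2 of the 10 genes (Vwf and Cdh5) had all 4 TrbE10 arrays above all controls, where 4.95% of gene entries did. In TrbE14 there were 4 of 10 (Vwf, Cdh5, Pecam1 and Flt1), where 4.65% of entries did. No member had all arrays of a mutant below the controls, as 5.63% of entries had in TrbE10 and 5.43% in TrbE14. These same genes, 2 and 4, were the ones with an unadjusted p under 0.05, all of them higher, beside 16.8% of entries in either direction and 7.8% higher in TrbE10, and 13.9% and 6.52% in TrbE14. Between the mutants no member was called by limma or by SAM, none had an unadjusted p under 0.05 with its brightest probe and none was free of overlap, where 0% of entries were called. Over all entries 5.96% had an unadjusted p under 0.05 there (2.92% higher), and 1.64% were higher and 1.73% lower without overlap.

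**Figure D2:**
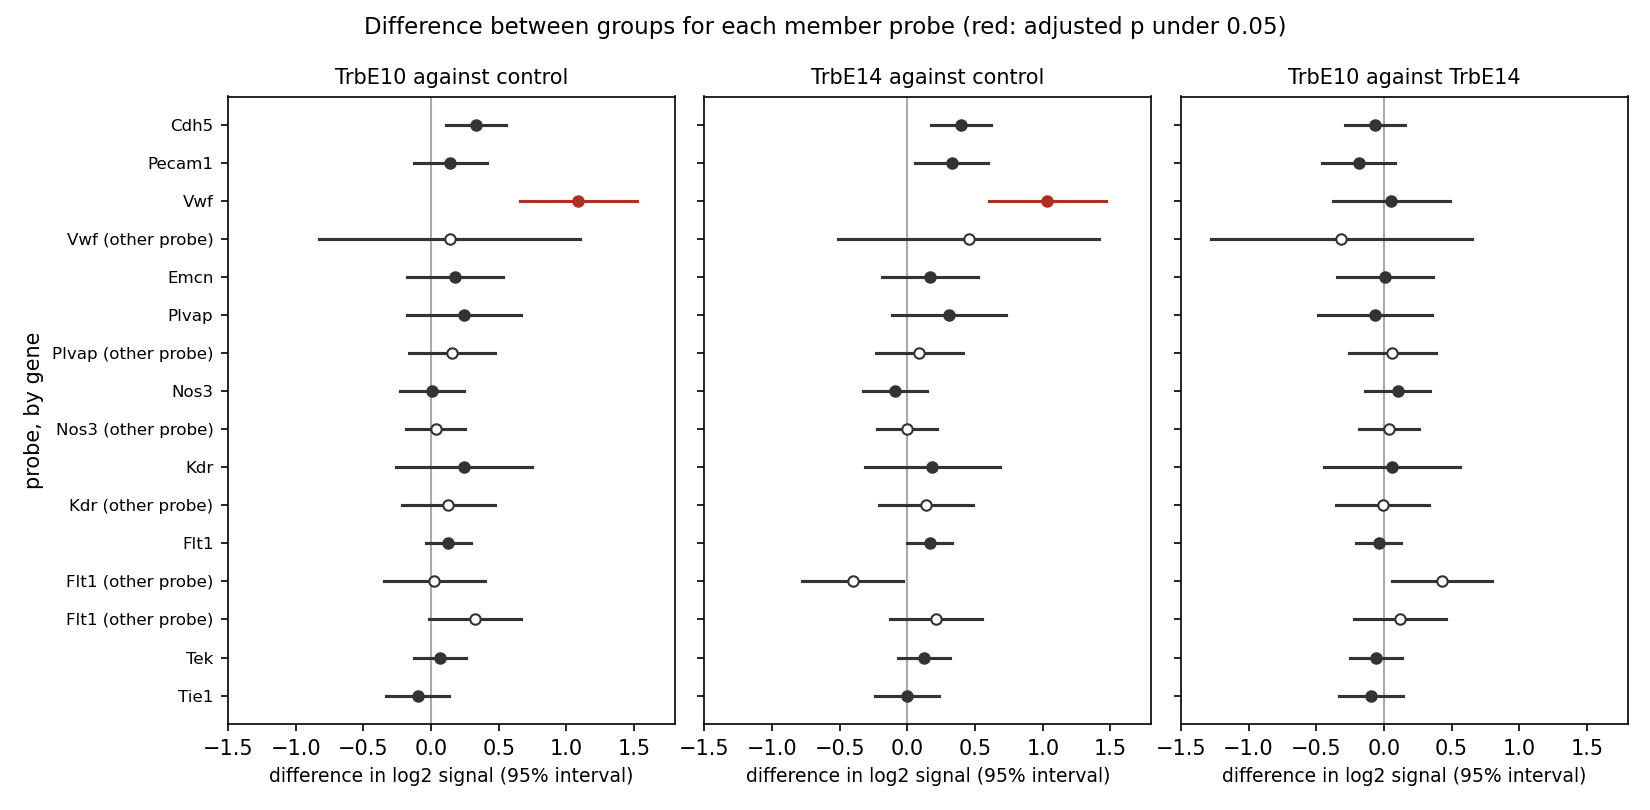
Difference in log2 signal between groups (horizontal axis) with its 95% interval for the 16 probes of the 10 genes, for TrbE10 against control, TrbE14 against control and TrbE10 against TrbE14. Filled points are the brightest probe of a gene, open points its other probes, and red marks an adjusted p under 0.05, which was reached by Vwf at 1.09 and 1.03. The lower Flt1 value of -0.41 in TrbE14 comes from a probe that was not well above background on any TrbE14 array.

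Emcn and Plvap, both endothelial surface proteins, had control ranges of 0.70 and 0.60 on the log2 scale, wider than any of their group differences. Emcn, the sialomucin endomucin of capillary and venous endothelium and of the endocardium, was read by A_55_P1988048 (NM_001163522). Its log2 signal was 8.52, 9.22, 9.06 and 9.12 in control, 9.37, 9.25, 9.01 and 8.98 in TrbE10, and 9.36, 9.25, 8.97 and 9.002 in TrbE14 arrays. Control 1 was the lowest of all 12 arrays, and the changes of 0.17 and 0.16 (SE 0.16) had intervals from -0.18 to 0.53 and from -0.19 to 0.52. Without control 1 the Emcn changes were 0.02 and 0.01. Plvap, the protein of fenestral and caveolar diaphragms, gave 9.53, 9.44, 9.11 and 8.93 in control, 9.82, 9.09, 9.51 and 9.57 in TrbE10, and 9.47, 9.34, 9.97 and 9.47 in TrbE14 arrays with its brighter probe (A_51_P414653). Its groups overlapped, and the changes were 0.24 and 0.31 (SE 0.19, adjusted p = 0.571 and 0.498). The second Plvap probe gave smaller changes, 0.15 and 0.09 (SE 0.14), and the 2 probes had r = 0.757 over the 12 arrays.

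Nos3, the endothelial nitric oxide synthase, had among the smallest changes of the set. The brighter probe (A_55_P2034027, NM_008713) gave 12.06, 12.11, 12.02 and 11.996 in control, 11.77, 12.01, 12.24 and 12.20 in TrbE10, and 11.83, 11.99, 11.90 and 12.09 in TrbE14 arrays. The controls lay within 0.12 of each other, and the TrbE10 arrays reached both below and above them. The change was 0.01 in TrbE10 (interval of the fold 0.85 to 1.19) and -0.09 in TrbE14 (0.79 to 1.11). The other Nos3 probe, printed 10 times on each array, gave 0.03 (interval on the log2 scale -0.18 to 0.25) and 0.00 (-0.22 to 0.22).

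Kdr and Flt1 are the tyrosine kinase receptors of vascular endothelial growth factors, Kdr being the main signalling receptor and Flt1 binding the ligand more tightly while signalling less. Kdr was read by a probe printed 10 times (A_51_P316553, NM_010612, chromosome 5 of mm9 from 76329309 to 76329368, - strand), and among the brightest probes it had the widest spread between arrays in both mutants. Its log2 signal was 11.43, 11.84, 11.41 and 11.64 in control arrays. In TrbE10 arrays it was 11.85, 12.28, 11.75 and 11.43, and in TrbE14 arrays it was 12.19, 12.11, 11.33 and 11.44. Of the TrbE14 arrays, 2 lay above all controls, 1 among them and 1 below them. The changes of 0.24 and 0.18 (SE 0.23) did not pass the test (adjusted p = 0.642 and 0.734), and their intervals reached from 0.84-fold to 1.68-fold and from 0.80-fold to 1.61-fold. The second Kdr probe gave 0.13 and 0.14 (SE 0.16), with r = 0.577 to the first over the 12 arrays.

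Probes with repeated spots give the spread between single spots of an array, which does not hold the error of labelling and hybridisation and is not the error of their mean. Within an array, the 10 Kdr spots had a median SD of 0.044 on the log2 scale, while between arrays the SD was 0.20 in control, 0.35 in TrbE10 and 0.44 in TrbE14, from 4.62 to 10.2 times as large. For the 10 Nos3 spots the median SD was 0.047, and between arrays it was 0.045 in control, 0.16 in TrbE10 and 0.14 in TrbE14. The 2 Pecam1 spots had a median SD of 0.044, against 0.032 between controls and 0.24 and 0.16 between the mutant arrays. For Nos3 and Pecam1 the SD between controls was below the spot SD and that between mutant arrays above it. These are values of 4 arrays per group, no difference in spread was tested, and technical and animal spread between arrays cannot be told apart.

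**Figure D3:**
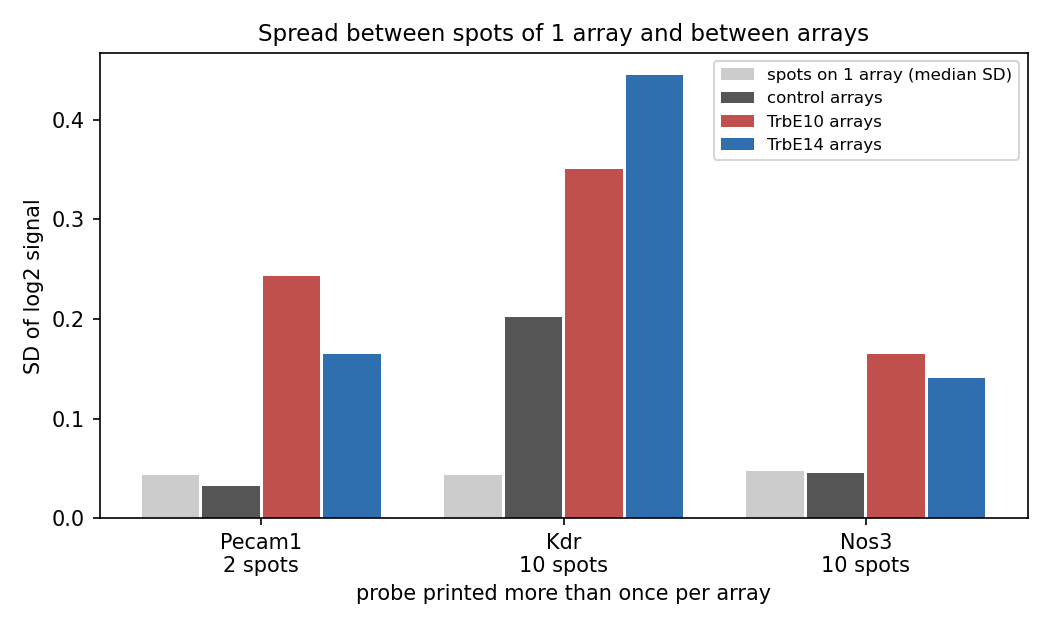
SD of the log2 signal (vertical axis, from 0) for the 3 probes printed more than once, as the median SD between spots of the same array and as the SD between the 4 arrays of each group. For Kdr the array bars stand from 4.62 to 10.2 times above the spot bar of 0.044, and for Nos3 and Pecam1 the control bars are near the spot bar.

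Flt1 was close to the controls with its brightest probe, which gave 13.11, 13.12, 13.09 and 12.9999 in control, 13.19, 13.09, 13.21 and 13.34 in TrbE10, and 13.30, 13.22, 13.17 and 13.30 in TrbE14 arrays. TrbE14 arrays were all above the controls, by a gap of 0.05, and 1 TrbE10 array lay among them. The changes were 0.13 ± 0.08 in TrbE10 (1.09-fold, adjusted p = 0.429) and 0.17 ± 0.08 in TrbE14 (1.12-fold, adjusted p = 0.368). The upper ends of the intervals were 1.23-fold and 1.26-fold. The probe assigned to ENSMUST00000110529 gave larger but less certain values, 0.33 and 0.21 (SE 0.15, adjusted p = 0.322 and 0.559), with r = 0.712 to the first. The AK005502 probe was well above background on 2 control, 3 TrbE10 and no TrbE14 arrays, and so passed the filter only through TrbE10. Its fitted change was -0.41 in TrbE14 against control and 0.43 in TrbE10 against TrbE14 (SE 0.17, adjusted p = 0.334 and 0.816). With values this near background the size of these differences is uncertain.

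Tek (Tie2) is the angiopoietin receptor of endothelial cells and Tie1 its partner receptor without a firmly established ligand of its own. Their probes, A_55_P2262136 for Tek (NM_013690, chromosome 4 of mm9 from 94540624 to 94540683, + strand) and A_51_P177171 for Tie1 (NM_011587, chromosome 4 from 118144132 to 118144191, - strand), sit in stretches that are alike in both genes. They are printed whole, with capitals at the bases that are identical when the probes are set against each other without gaps and shifted by 3 bases.
Tek: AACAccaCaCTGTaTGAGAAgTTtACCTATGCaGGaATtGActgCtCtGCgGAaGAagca
Tie1: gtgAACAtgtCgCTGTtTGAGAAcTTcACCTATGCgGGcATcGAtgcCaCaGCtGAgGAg
In this position 39 of 57 bases were identical (68.4%), and whether the probes bind each other's transcript was not tested. Neither receptor changed past the test, and both had narrow intervals. Tek gave 8.39, 8.40, 8.64 and 8.47 in control, 8.69, 8.49, 8.56 and 8.44 in TrbE10, and 8.69, 8.63, 8.53 and 8.54 in TrbE14 arrays. The Tek change was 0.07 in TrbE10 (interval 0.92-fold to 1.20-fold) and 0.12 in TrbE14 (0.95-fold to 1.24-fold). Tie1 gave 10.37, 10.32, 10.66 and 10.63 in control, 10.60, 10.35, 10.42 and 10.20 in TrbE10, and 10.43, 10.49, 10.48 and 10.56 in TrbE14 arrays. The 4 TrbE14 values of Tie1 fell between the lower and the upper pair of controls, and the changes were -0.10 (0.79-fold to 1.10-fold) and 0.00 (0.85-fold to 1.17-fold).

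Set side by side, the 9 members other than Vwf had changes of -0.10 to 0.33 (TrbE10) and -0.09 to 0.40 (TrbE14), with medians of 0.14 and 0.17. Across those 9, the intervals reached no further than 0.79-fold at the lower end and 1.68-fold (Kdr) and 1.66-fold (Plvap) at the upper end. A change of the 9 genes as large as the fitted 2.13-fold and 2.05-fold of Vwf lay outside every one of these intervals. As a description of each array, the mean of the 9 genes, each centred over the 12 arrays, lay between -0.14 and -0.08 in the controls, between -0.03 and 0.09 in TrbE10 arrays and between 0.03 and 0.11 in TrbE14 arrays, so that neither mutant overlapped the controls. Both comparisons share the 4 control arrays. The same mean over the 25 other pan-endothelial genes described below did overlap in TrbE10 (lowest array -0.076, highest control -0.070). In TrbE14 it did not (lowest array -0.023). The arterial, endocardial and macrophage lists below also lay above the controls without overlap in both mutants. The lymphatic list lay below them (lowest control 0.12, highest TrbE10 array -0.01, highest TrbE14 array 0.10). Such a separation was thus not particular to the 9 genes.

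Members did not vary as 1 block across the 12 arrays. Over the 45 pairs of members, Pearson's r was above 0.5 in 13 and below 0 in 15, and with the group means removed it was above 0.5 in 4 and below 0 in 23. The arrays share slides and groups, so these values are descriptions. Same-numbered TrbE10 and TrbE14 arrays also deviated alike from their group means over all kept probes for numbers 1, 2 and 4. There r was 0.374, 0.309 and 0.476, beside -0.008 for number 3, and removing the group means does not take this out. The highest pairs were Flt1 with Vwf (r = 0.76), Kdr with Emcn (0.714) and Pecam1 with Cdh5 (0.699). After the group means were removed, Tek with Tie1 led with 0.738, followed by Kdr with Emcn at 0.679, while Cdh5 with Vwf turned from 0.62 to -0.45. The lowest value then was that of Pecam1 with Kdr, -0.668.

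**Figure D4:**
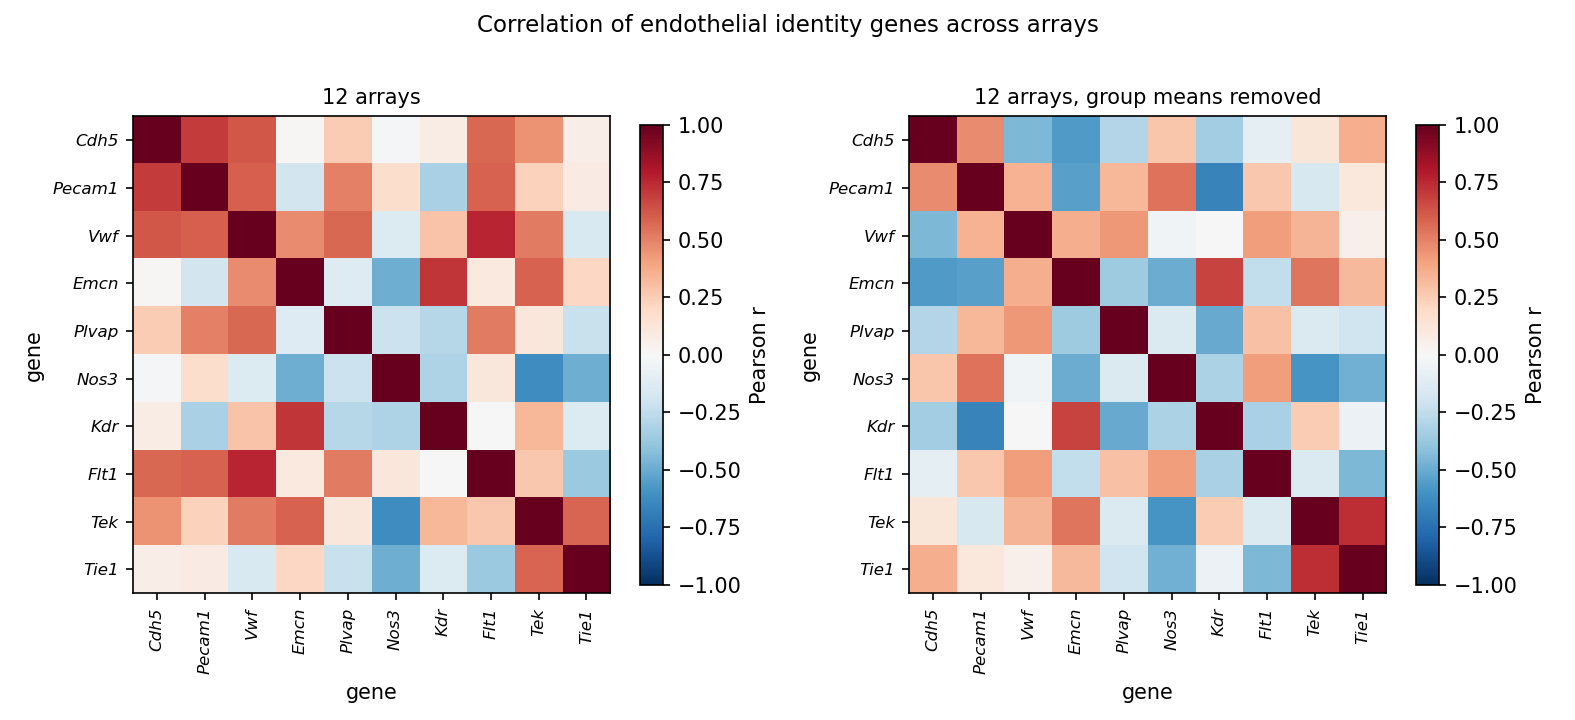
Pearson's r between the brightest probes of each pair of the 10 genes (both axes list the genes), over the 12 arrays and after the mean of each group was subtracted, with red above 0 and blue below. The pairs Kdr with Emcn and Tek with Tie1 are red in both panels (0.714 and 0.585, then 0.679 and 0.738), whereas Cdh5 with Vwf goes from 0.62 to -0.45.

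The entries whose pattern was most like the mean of the 10 members, each centred so that Vwf with its wider range weighs most, were named by the highest r over the 12 arrays. The first 10 had r from 0.929 to 0.967, and 1 of them was a probe without a gene name. Eng, the endothelial transforming growth factor β co-receptor endoglin, came first (r = 0.967, and 0.867 with group means removed). It was followed by Dkk3 (0.948), Pdgfrb (0.946), Cfhr2 (0.932), Vsig4 (0.931), Slc15a3, Tmem176b, Tmem45a and Colec11. Vsig4, a complement receptor of macrophages, had by far the largest change of these, 4.09 on the log2 scale in TrbE10 and 3.82 in TrbE14.

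Genes beyond the 10 show which endothelial markers moved apart from them. All 25 of the other pan-endothelial genes were measured, of which 1 was called higher in TrbE10 (Eng, 0.71, adjusted p = 0.0412) and none in TrbE14, where Eng was at 0.72 (adjusted p = 0.0642) with all arrays above the controls. At an unadjusted p under 0.05, 4 were higher and 1 lower in TrbE10, and 4 were higher and none lower in TrbE14. Of all entries, 7.8% and 6.52% were higher at that p, and 16.8% and 13.9% passed it in either direction. SAM called Eng in TrbE14 and not in TrbE10. Their median change was 0.11 and 0.06. For scale, 1.28% of gene entries were called higher and 0.649% lower in TrbE10, and 0.533% and 0.128% in TrbE14. The ligands of the receptors named above were not called in either mutant: of 6, 5 were measured, none had an unadjusted p under 0.05, and Vegfa, the chief ligand of Kdr, was at -0.22 and -0.21 (SE 0.17).

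Markers of particular vessel beds moved in both directions. Of the 9 measured capillary genes, Btnl9 rose (0.79 in TrbE10, adjusted p = 0.0304, and 0.91 in TrbE14, adjusted p = 0.0248), while the water channel gene Aqp1 fell by 1.47 and by 1.33 on the log2 scale (adjusted p = 0.00472 and 0.0139), with all mutant arrays below all controls. The dimmer Btnl9 probe, A_51_P237585, gave 0.64 and 0.82 and was called in neither mutant (adjusted p = 0.24 and 0.204). Of the 10 arterial genes, the Notch effector Hey1 rose in both mutants (0.88 and 1.09, adjusted p = 0.00398 and 0.00161) and the arterial ligand Efnb2 in TrbE10 (0.60, adjusted p = 0.0213). Gja5, whose locus carries the Cre, was at -0.64 and -0.47 (SE 0.36, adjusted p = 0.41 and 0.572). In the venous list 1 of 6 measured genes was called, Nrp2, which fell by 0.49 in TrbE14 (adjusted p = 0.0238). Its dimmer probe, A_65_P15245, gave -0.88 there and was not called (adjusted p = 0.142). Of the 3 measured endocardial genes Cytl1 rose in both mutants (2.07 and 1.73, adjusted p = 0.0025 and 0.0103) and Npr3 in TrbE10 (1.24, adjusted p = 0.0247), and Nfatc1 gave -0.01 and -0.20. Of the 5 measured lymphatic genes Mmrn1 fell by 0.69 in TrbE10 (adjusted p = 0.0318). The list medians in TrbE10 and TrbE14 were -0.14 and 0.09 for capillary, 0.22 and 0.27 for arterial, 0.10 and 0.08 for venous, 1.24 and 0.996 for endocardial and -0.20 and -0.39 for lymphatic genes. Calls of Hey1 and Cytl1 in both mutants, of Aqp1 in TrbE10 and of Csf1r, a macrophage gene, in both held with any 1 of the 8 arrays left out, whereas that of Eng in TrbE10 held in 1 of 8 such fits, those of Btnl9 in 3 (TrbE10) and 2 (TrbE14), of Npr3 and Mmrn1 in 3 each and of Nrp2 in 2. Those of Aqp1 in TrbE14, Efnb2 in TrbE10 and Pf4 in TrbE10 held in 7, 5 and 4.

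Genes of other cell types of the tissue were called as well. In TrbE10, 4 of 8 macrophage genes were called higher (Csf1r, Fcgr1, Cd68 and C1qa), and in TrbE14 1 was (Csf1r, 0.92). The Fcgr1 probe was dim, with mean log2 signals of 4.55 in control, 5.81 in TrbE10 and 5.00 in TrbE14 arrays. Its TrbE10 change was called in all 9 alternatives that measured it but fell as low as 0.44, so its size is uncertain. Of the dimmer Csf1r probes, A_52_P602091 was called in both mutants and A_55_P2025073 in neither (0.70 and 0.46, adjusted p = 0.0619 and 0.273). With 1 array left out, the TrbE10 calls held in 8 of 8 fits for Csf1r, 6 for Fcgr1, 3 for Cd68 and 2 for C1qa. The mean centred macrophage level lay between -0.43 and -0.34 in controls, with TrbE10 arrays at 0.11 to 0.48 and TrbE14 arrays at -0.08 to 0.15. Of the 9 mural cell genes, Pdgfrb, the pericyte receptor, rose in TrbE10 (0.37, adjusted p = 0.0444), a call that held in 1 of 8 such fits, and was at 0.41 in TrbE14 (adjusted p = 0.0511) with all arrays above the controls. Of the 7 fibroblast genes Dcn rose in both mutants (0.39 and 0.50), calls that held in 1 and 3 of 8 fits. Of the 4 atrial genes Sln rose in TrbE10 (3.80, adjusted p = 0.0177), which held in 4 of 8 fits, and was at 3.33 in TrbE14 (adjusted p = 0.0511), with all mutant arrays above the controls. The atrial list did not move as a whole: 2 of its 4 genes had a change above 0 in TrbE10 and 3 in TrbE14, with lowest changes of -0.12 and -0.0006. The controls varied widely, with an SD of 1.73 for Sln and a mean centred atrial level between -2.34 and 0.74. The list medians in TrbE10 and TrbE14 were 0.67 and 0.35 for macrophage, 0.15 and 0.41 for mural, 0.46 and 0.43 for fibroblast, 0.99 and 0.87 for atrial and -0.08 and -0.11 for platelet genes, and -0.04 and -0.03 for cardiomyocyte genes. What these cells add to the signals of Pecam1, Vwf and Cdh5 was not tested.

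**Figure D5:**
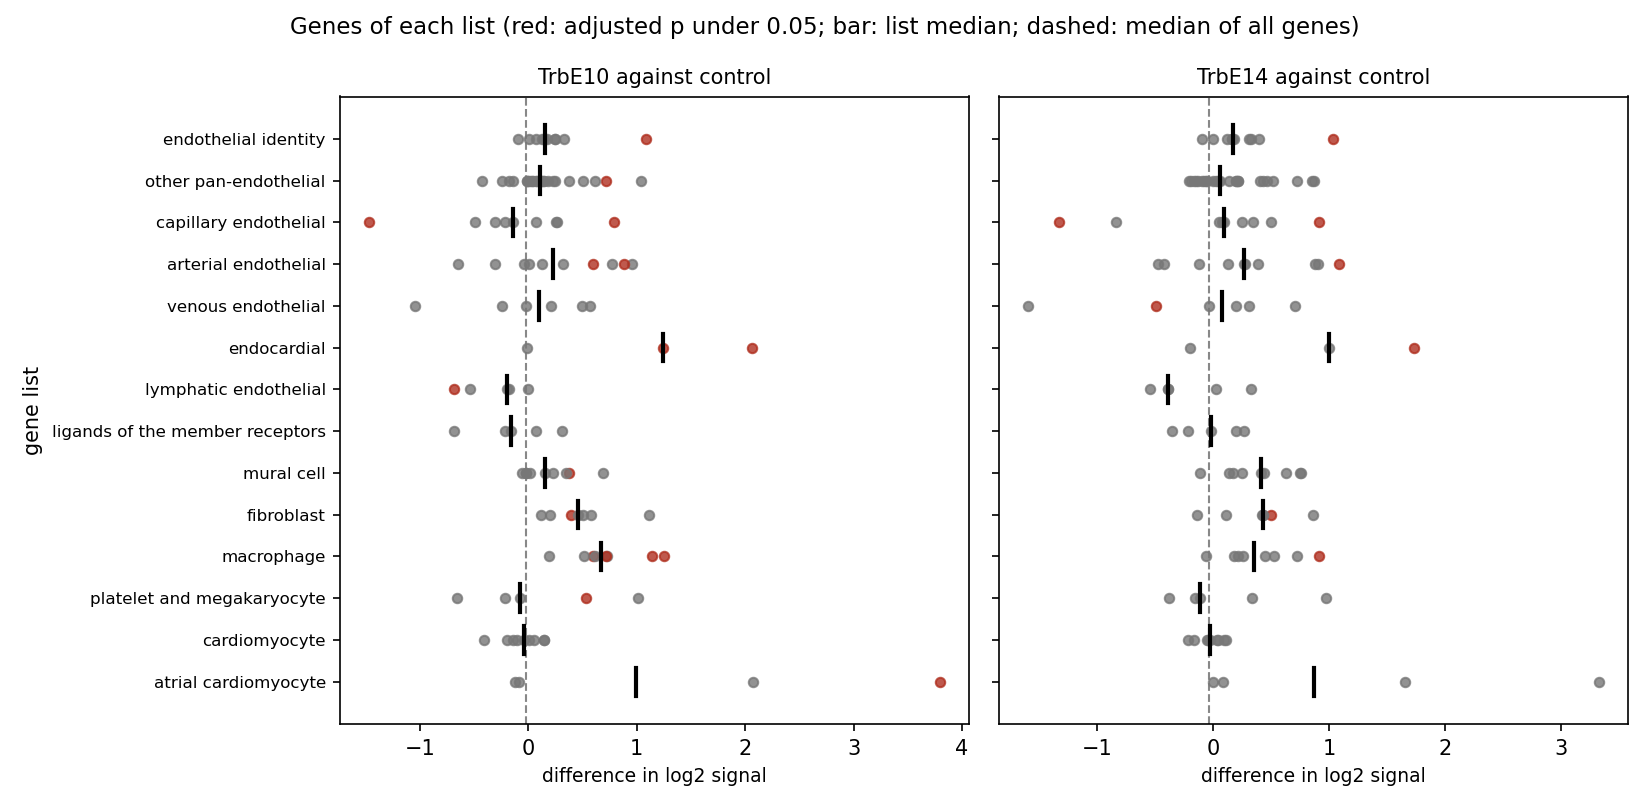
Difference in log2 signal from control (horizontal axis) for every measured gene of each list (rows), in TrbE10 and in TrbE14, with 1 point per gene, red for an adjusted p under 0.05, a black bar at the list's median and a dashed line at the median of all gene entries. The endothelial identity genes lie within -0.10 and 0.40 apart from Vwf, while the list medians in TrbE10 are highest for the endocardial (1.24), atrial (0.99) and macrophage (0.67) rows. The atrial row reaches down to -0.12 in TrbE10, where 2 of its 4 genes are above 0. In TrbE14 the endocardial row reaches down to -0.20 and the macrophage row to -0.06.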

How the data were processed

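Left ventricular RNA of 12 mice, 4 per group, was labelled with Cy3 and hybridised to 12 one-colour Agilent SurePrint G3 Mouse arrays. The authors deposited the output of Agilent Feature Extraction 10.5 for each array, whose processed signal is a linear, background-subtracted intensity not yet scaled between arrays, with flags of other kinds for each spot. The authors also deposited a table of log2 values of 22114 spots after quantile normalization and a filter, used here as an alternative. Probe sequences and mm9 coordinates were copied from the scanner output.

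In R 4.3.3 with limma 3.58.1, control spots were removed, processed signals were log2-transformed, spots that the scanner's software marked as outliers (93 to 131 per array) were set to missing, arrays were quantile normalized and spots of a probe averaged. A probe was kept when 3 or more of the 4 arrays of some group had it well above background, which left 24593 of 55681 probes, 7 with a missing value. limma fitted 1 mean per group over all 3 groups (degrees of freedom 9 residual, 2.195 prior), with Benjamini-Hochberg adjustment over all kept probes in each comparison. All adjusted p-values come from this fit unless another tool is named. A gene was represented by its kept probe with the highest mean signal. Of the 18021 gene entries, 935 were probes without a gene name, counted under their own ID. The scripts were tested on simulated data. Precision is limited by the number of arrays, 4 per group. The 75th percentile of the processed signal was 194.6 to 249.5 in control, 206.7 to 222.7 in TrbE10 and 200.3 to 246.5 in TrbE14 arrays.

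The members and gene lists were chosen with earlier results of these data known. Named were all members with every kept probe, of each other list up to 4 called genes by adjusted p, Eng, Npr3 and Gja5, and the 10 entries most like the members' mean. Values in the text without a name of a probe are those of the brightest kept probe. Vegfa, Nfatc1 and Itga2b were named after their values were seen. SAM with 2 classes was run over all 70 label orders at a false discovery rate of 5%. The alternatives are given in the closing section. No genome, annotation or protein sequence of the members was used.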

Additional observations from a re-analysis of the deposited data

Results flagged for a closer look

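In 1 of 48 groups of 4 arrays tested over the 16 probes, a single array lay far from the rest. For Cdh5, control 2 was at 10.63 on the log2 scale and the other controls at 10.99 to 11.03, so that its gap to the nearest array made up 0.912 of the group's range and passed the critical value of Dixon's test. Chance marks about 5% of groups in this way. Without control 2 the Cdh5 changes were 0.24 in TrbE10 and 0.30 in TrbE14 (limma adjusted p = 0.22 and 0.2).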

How the results depend on the processing

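The number of members called (1 in TrbE10 and 1 in TrbE14, Vwf in both) was the result most open to the processing. In TrbE10 it was 0 with no filter on dim probes, with only the 2 groups compared in the fit, with the replicate block and with the mean of all kept probes of a gene. In TrbE14 it was 0 under these and under scaling to the 75th percentile, and 2 (Vwf and Cdh5) with normexp. With 1 array left out it ranged from 0 to 1 in both. Why these settings moved the count was not tested, beyond the dim second Vwf probe entering the mean of probes. With the brighter probe or that mean, Vwf was above control under every alternative run, from 0.61 to 1.24 on the log2 scale, whereas the second probe reached -0.13 in TrbE10 and -0.03 in TrbE14 and, without control 4, -0.26 in TrbE10. For the brighter probe much of this was fixed beforehand. The filters, the fit of only the 2 groups, the replicate block and SAM leave its fitted change as it is. As all mutant arrays lay above all controls, leaving out 1 array could not turn its sign. SAM, normexp, the authors' normalized values, the stricter filter of 9 of 12 arrays and sex as a covariate kept Vwf as a called gene in both mutants. With the replicate block the Vwf changes were 1.09 and 1.03, with adjusted p of 0.0589 and 0.106, and the blocked fit changed no other member's call. Replicate numbers were not taken as pairing samples: the deviations of same-numbered arrays from their group means had r over 0.1 in 3 of 12 pairs, all of them TrbE10 with TrbE14 (0.374, 0.309 and 0.476, each also the best match), and in none with a control.

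The median change of the members ranged in TrbE10 from 0.13 to 0.20 over the alternatives and from 0.14 to 0.19 with 1 array left out. In TrbE14 it ranged from 0.14 to 0.29, the highest with sex as a covariate (0.29), and with 1 array left out from 0.12 (without TrbE14 1) to 0.26 (without control 2). Between the mutants it ranged from -0.06 to -0.03, and from -0.07 to -0.02 with 1 array left out, and the number of members called was 0 throughout. Without Vwf, an alternative added after its values were seen, the medians were 0.14, 0.17 and -0.06. Of 840 values of member probes under the alternatives, 60 changed sign, none of them called. A slide or scan term could not be fitted for TrbE10 and adds nothing within the slide that holds both other groups. Probes near background (the second Vwf and the AK005502 Flt1 probe) limit what can be said of those transcripts.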
